A study of Drosophila melanogaster with 18 samples.

Results

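The genes described here encode the storage proteins of the female and the larva of Drosophila melanogaster. They are the yolk protein genes Yp1, Yp2 and Yp3, the larval serum protein genes Lsp1alpha, Lsp1beta, Lsp1gamma and Lsp2, and Fbp1 and Fbp2, which encode fat body proteins of the last larval stage. They were chosen by name, and 8 of the 9 were found among the 15406 genes of the head count table by their symbol and FlyBase identifier. Fbp2 was not analysed here. Poly(A) RNA had been sequenced from heads 1 h after eclosion, with 3 libraries of the miR-210Δ mutant (genotype mir210KO in the labels) and 3 of the wild type (wDah, the outbred white Dahomey stock that carries Wolbachia). The mutant is a null allele made with CRISPR/Cas9 and a pair of guides that flank the miR-210 gene, and both genotypes are labelled as wDah in strain. The labels give no sex for the heads, and the methods name once-mated female flies as the default. Whether that default held for flies 1 h after eclosion is not stated. The study used these heads to look for potential targets of miR-210, a miRNA of the fly eye. Another 12 libraries of the series hold small RNA of other tissues and were not used here.

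Yolk proteins are secreted by the fat body of the adult female and by the follicle cells of the ovary, circulate in the haemolymph and are taken up by the oocyte through the receptor Yolkless. They are related in sequence to lipases, and their transcription is switched by the sex determination gene doublesex and stimulated by juvenile hormone and ecdysone. Larval serum proteins belong to the hexamerins, storage proteins that the larval fat body pours into the haemolymph before metamorphosis, and Lsp2 is also known from adult fat body. Fbp1 is the receptor through which the fat body takes larval serum proteins back up, and its promoter is a classic target of ecdysone. Fat body cells of the larva persist into the newly eclosed adult and are then lost by cell death, so a head at 1 h can hold both larval and adult fat body. In whole heads, fewer cells of a type and less RNA per cell cannot be told apart.

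The 8 genes lie at 7 separate places of the genome. In the dm6 build, the neighbours Yp2 (FBgn0005391, chrX:10050951-10052636, minus strand) and Yp1 (FBgn0004045, chrX:10053811-10055498, plus strand) are divergently transcribed and separated by 1174 bp. Yp3 (FBgn0004047, chrX:13759546-13761547, plus strand) and Lsp1alpha (FBgn0002562, chrX:12490291-12492982, plus strand) lie elsewhere on the X chromosome, so that 4 of the 8 genes are on X. Lsp1beta (FBgn0002563, chr2L:898500-901316, plus strand), Lsp1gamma (FBgn0002564, chr3L:66430-68995, plus strand), Lsp2 (FBgn0002565, chr3L:12129393-12131869, plus strand) and Fbp1 (FBgn0000639, chr3L:14094589-14098053, minus strand) are autosomal. The miR-210 gene is on the X chromosome as well, with its 3p arm at chrX:18128270-18128292, plus strand. Yp1 overlaps the antisense gene asRNA:CR45601 and Lsp2 overlaps asRNA:CR11538, and because the strand setting of the counting is not given in the sources used here, reads of a gene and its antisense partner cannot be told apart.

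The miRNA missing from the mutant is shown first, written as DNA with its seed, bases 2 to 8, in capitals.
miR-210-3p: cTTGTGCGtgtgacagcggctat
The match to bases 2 to 8 is CGCACAA, and 2.94% of 13543 genes with an annotated 3′ UTR hold it in any transcript. The match ACGCACA, which pairs with bases 3 to 9 and is the site altered in the study's mutated Fasn1 3′ UTR, is held by 3.96%. Neither was present in an annotated 3′ UTR of any of the 8 genes, the longest of which run from 82 bp in Lsp1alpha to 549 bp in Yp3. Coding sequences, the 5p arm and other matches were not searched, so whether these genes are targets was not tested.

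The upstream sequences of 4 genes are shown because the results below differ within each family. Yp3 and Lsp1gamma were higher in mutant heads, and Yp2 and Lsp1beta, the most abundant gene of the yolk proteins and of the Lsp1 subunits, did not pass the test. Each window holds the 250 bases before the annotated start, on the strand of the gene, from the dm6 genome sequence of RefSeq. Capitals mark GATAA, the core of the sites of GATA factors such as Serpent, and TATAAA, the TATA box, on either strand.
Yp3 (chrX:13759296-13759545, plus strand): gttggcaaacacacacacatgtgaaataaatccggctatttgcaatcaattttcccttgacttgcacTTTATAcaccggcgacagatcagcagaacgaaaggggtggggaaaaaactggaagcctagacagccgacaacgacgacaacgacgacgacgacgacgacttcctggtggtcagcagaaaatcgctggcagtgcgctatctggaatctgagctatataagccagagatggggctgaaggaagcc
Yp2 (chrX:10052637-10052886, minus strand): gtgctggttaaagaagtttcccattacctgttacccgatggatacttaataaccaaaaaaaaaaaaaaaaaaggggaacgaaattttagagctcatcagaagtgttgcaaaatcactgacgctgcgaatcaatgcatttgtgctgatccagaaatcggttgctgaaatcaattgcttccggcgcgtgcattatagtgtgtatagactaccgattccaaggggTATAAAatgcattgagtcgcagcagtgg
Lsp1gamma (chr3L:66180-66429, plus strand): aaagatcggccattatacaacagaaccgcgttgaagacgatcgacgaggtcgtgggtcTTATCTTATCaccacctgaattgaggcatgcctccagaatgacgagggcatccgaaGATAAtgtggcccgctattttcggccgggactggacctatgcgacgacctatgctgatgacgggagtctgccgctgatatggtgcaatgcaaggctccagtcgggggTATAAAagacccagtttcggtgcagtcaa
Lsp1beta (chr2L:898250-898499, plus strand): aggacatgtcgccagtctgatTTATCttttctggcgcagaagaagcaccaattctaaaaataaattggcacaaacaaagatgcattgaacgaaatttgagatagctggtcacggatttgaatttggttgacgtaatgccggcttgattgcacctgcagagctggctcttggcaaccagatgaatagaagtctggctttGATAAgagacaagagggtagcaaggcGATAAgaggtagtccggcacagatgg
In windows of 250 bases before to 50 after the start, GATAA was found in all 5 of the larval serum protein and Fbp1 genes and in 0 of the 3 yolk protein genes, against 55.1% of 13968 promoters. Lsp1beta and Lsp1gamma each held 3 copies, Lsp2 held 2, and Lsp1alpha and Fbp1 held 1. A copy in Lsp1beta begins 26 bases before the start and another 52 bases before it, and the copy nearest the start in Lsp1gamma begins at 136 bases. TATAAA was found in 6 of the 8 windows, against 45.8% of promoters, and it begins 28 bases before the start in Yp2, 29 in Lsp1gamma, 38 in Lsp2 and 42 in Fbp1. The match in Yp3 is on the other strand, 183 bases upstream, and that in Yp1 is 17 bases after the annotated start. ACAATGT, the core of Doublesex sites, and AGGTCA, which nuclear receptors bind, were found in 0 of the 8 windows, against 4.62% and 5.88% of promoters. Only exact matches in these windows were searched, not variants of the motifs or sequence farther away. They describe letters and not sites.

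The head libraries held 17992976 to 20486283 counts in miR-210Δ and 18931638 to 21315973 in wDah. Of the 9470 genes that passed edgeR's expression filter, 956 were called between genotypes by its quasi-likelihood test at a Benjamini-Hochberg adjusted p under 0.05 (10.1%), namely 376 higher (3.97%) and 580 lower (6.12%) in miR-210Δ. With counts scaled to library totals instead of the trimmed mean of M-values (TMM), 793 were higher and 407 lower. Library wDah replicate 3 stood apart, with 11800 genes counted at least once against 10860 to 11027 elsewhere and with the muscle actin gene Act79B at 3360.2 CPM (counts scaled to library size), where the other 5 libraries had 726 to 1279 CPM. All 13 photoreceptor markers were lower in miR-210Δ, with a summed level of 18403 to 18902 CPM against 30494 to 33521 CPM in wDah. The sources do not say whether replicates were separate sets of flies, so the p-values cover the spread among these libraries, which may be technical.

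All 8 genes were expressed in every library and passed the filter. Yp3 rose 1.47-fold (95% interval 1.29 to 1.68) and Lsp1gamma 1.33-fold (1.18 to 1.50) in miR-210Δ heads, while the other 6 genes were not called. Thus 2 of 8 genes were called higher, beside 3.97% of all genes tested, and 0 were called lower by edgeR, beside 6.12%. At an unadjusted p under 0.05 there were 3 higher and 0 lower. The share of all genes at that threshold was not computed, here or for the lists below. DESeq2 called 3 higher and 0 lower, beside 325 and 552 of all genes. Limma-voom called 2 and 0, beside 378 and 588. The CPM of the genotypes did not overlap for 3 of the 8, namely Yp3, Lsp1gamma and Fbp1, each higher in miR-210Δ, beside 13.2% of all genes. The median log2 fold change over the 8 genes was 0.069, against 0.0012 over all genes tested, and 7 of 8 values were positive. Among all called genes, 27.0% had a larger absolute log2 fold change than Yp3 and 37.1% a larger one than Lsp1gamma.

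**Figure D1:**
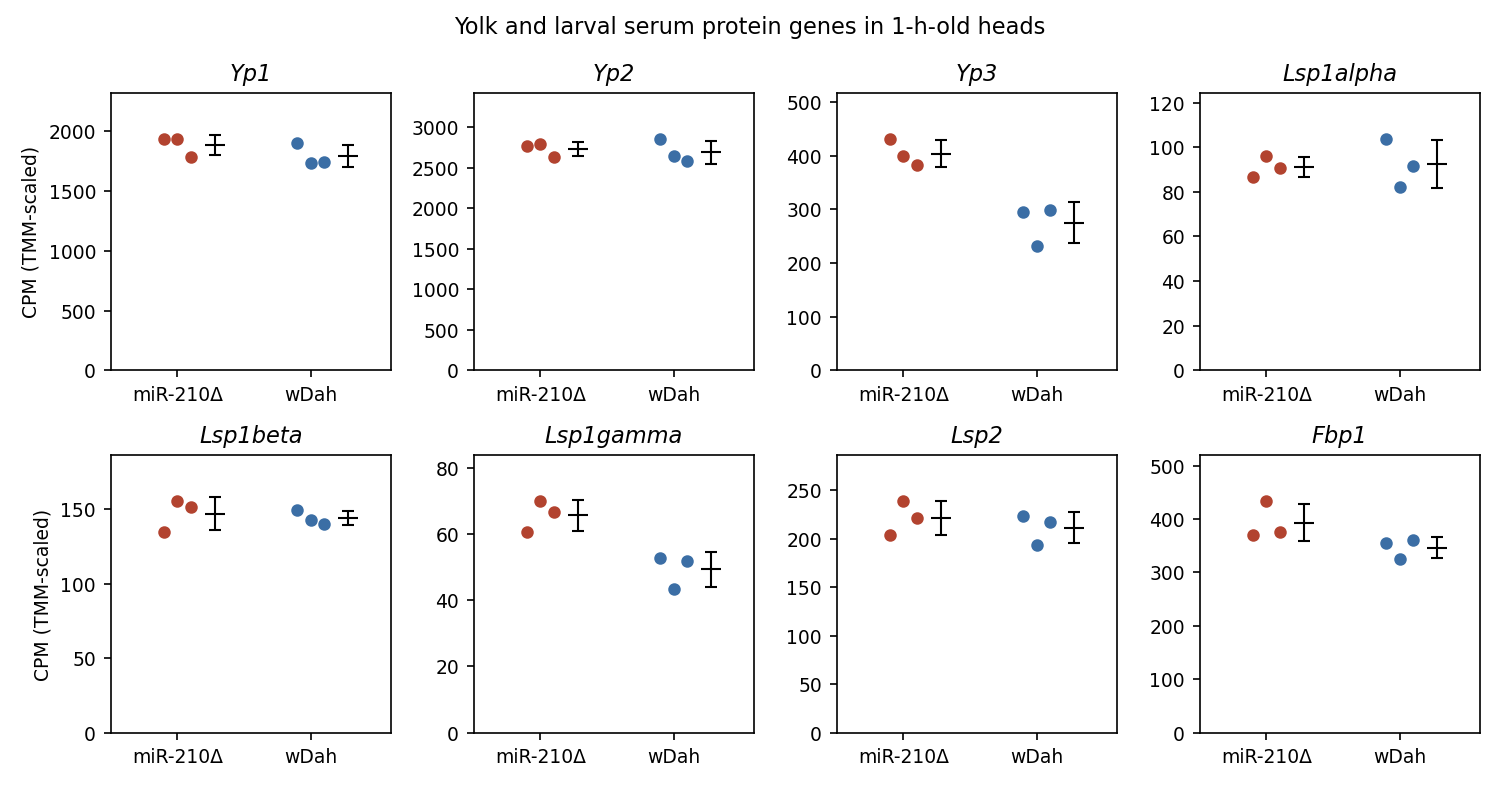
TMM-scaled CPM of each gene in the 3 miR-210Δ and the 3 wDah head libraries (points), with the mean and SD beside them (bar). The miR-210Δ points of Yp3, between 382 and 430.4 CPM, lie above all wDah points, and so do those of Lsp1gamma and Fbp1, whereas the points of the other 5 genes overlap.

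Yp2 was the most abundant of the yolk protein genes. It stood at 2768, 2801 and 2635 CPM in miR-210Δ heads, against 2854, 2643 and 2587 CPM in wDah heads. Its means were 2735 ± 87.6 and 2694 ± 141 CPM (SD, n = 3 each), and the ranges overlapped. The log2 fold change was 0.021 (SE 0.049, adjusted p = 0.847, edgeR), with a 95% interval of -0.086 to 0.13. Per length, at 1690.1 RPKM (CPM divided by exon length in kilobases) in miR-210Δ and 1665 RPKM in wDah, it ranked 12 among 12790 protein-coding genes in both genotypes.

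Yp1, which shares its intergenic region with Yp2, stood at 1928, 1929 and 1782 CPM in miR-210Δ heads, against 1895, 1734 and 1738 CPM in wDah heads. The lowest mutant library lay inside the wDah range. The means were 1879.8 ± 85.0 and 1789 ± 91.7 CPM (SD, n = 3 each), with a log2 fold change of 0.071 (95% interval -0.041 to 0.18, adjusted p = 0.456, edgeR). Its level per length was 1167 RPKM in miR-210Δ and 1111 RPKM in wDah, which ranked 19 and 27.

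Yp3, the third and least abundant yolk protein gene, was the one called. Its counts were 9014, 7714 and 6971 in miR-210Δ libraries and 5539, 4824 and 5503 in wDah libraries. Scaled, these were 430.4, 399 and 382 CPM in miR-210Δ heads, against 295, 231 and 299 CPM in wDah heads. Every mutant library was above every control, and wDah replicate 2 was the lowest of the 6. The means were 404 ± 24.7 and 275 ± 38.2 CPM (SD, n = 3 each), and the log2 fold change was 0.56 (SE 0.086, 95% interval 0.37 to 0.75, adjusted p = 0.00166, edgeR). Without wDah replicate 3 the log2 fold change was 0.62 (adjusted p = 8.83e-06), and without wDah replicate 2 it was 0.45 (adjusted p = 4.74e-04). Per length, Yp3 stood at 216 ± 13.2 RPKM in miR-210Δ and 147 ± 20.4 RPKM in wDah, a rank of 339 and 521.

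Yp1 and Yp2 made up most of the family. The summed level of the 3 genes was 5126, 5129 and 4799 CPM in miR-210Δ heads, against 5043, 4607 and 4624 CPM in wDah heads. These sums were 0.487% to 0.526% of all counts in miR-210Δ and 0.446% to 0.500% in wDah, and the ranges overlapped. Within the family, Yp3 held 7.03 ± 0.28% of the RPKM in miR-210Δ and 5.03 ± 0.64% in wDah (SD, n = 3 each). The share of Yp2 was 55.0 ± 0.46% in miR-210Δ and 57.0 ± 0.65% in wDah, and that of Yp1 was 38.0% in both.

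**Figure D2:**
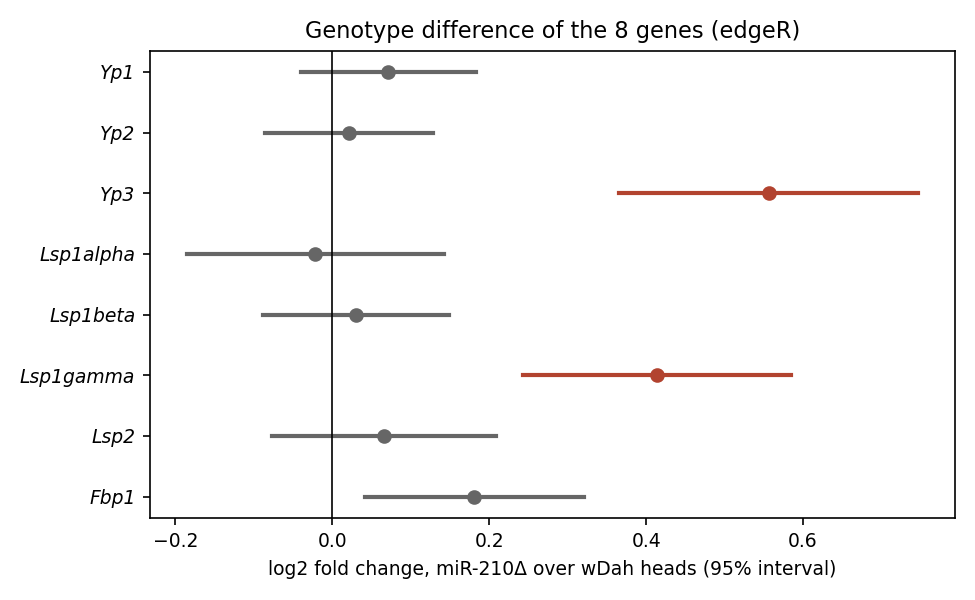
Log2 fold change of each gene, miR-210Δ over wDah heads, with its 95% interval (line) derived from edgeR's test, in red where the adjusted p is under 0.05. The intervals of Yp3 (0.37 to 0.75) and Lsp1gamma (0.24 to 0.59) lie above 0, as does that of the uncalled Fbp1 (0.041 to 0.32), and the other 5 include 0.

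The larval serum proteins were far less abundant than the yolk proteins. Their 4 genes summed to 486, 559 and 530.1 CPM in miR-210Δ heads, against 529, 462 and 501 CPM in wDah heads, and the ranges overlapped. Lsp1 is assembled from 3 kinds of subunit, each from its own gene, and Lsp2 forms a separate hexamer.

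Lsp1gamma, the gene of the gamma subunit, was the lowest of the 8 and the only larval serum protein gene called. Its counts were 1269, 1349 and 1213 in miR-210Δ libraries and 990, 905 and 955 in wDah libraries. Scaled, they were 60.6, 69.7 and 66.4 CPM in miR-210Δ heads, against 52.7, 43.3 and 51.8 CPM in wDah heads. The groups did not overlap, and wDah replicate 2 was again the lowest library. The means were 65.6 ± 4.63 and 49.3 ± 5.20 CPM (SD, n = 3 each), with a log2 fold change of 0.41 (SE 0.077, 95% interval 0.24 to 0.59, adjusted p = 0.00555, edgeR). It was 0.45 (adjusted p = 3.36e-04) without wDah replicate 3 and 0.33 (adjusted p = 0.0102) without wDah replicate 2. Its level per length was 26.2 ± 1.85 RPKM in miR-210Δ and 19.7 ± 2.08 RPKM in wDah.

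The alpha subunit gene Lsp1alpha stood at 86.7, 95.9 and 90.6 CPM in miR-210Δ heads, against 104, 82.2 and 91.7 CPM in wDah heads. All mutant libraries lay inside the wDah range. The log2 fold change was -0.022 (95% interval -0.19 to 0.14, adjusted p = 0.900, edgeR), the only negative value among the 8 genes, and with library totals it was 0.037. The beta subunit gene Lsp1beta stood at 135, 155 and 151 CPM in miR-210Δ heads, against 149, 143 and 140.3 CPM in wDah heads, with overlapping ranges. Its log2 fold change was 0.031 (95% interval -0.088 to 0.15, adjusted p = 0.793, edgeR). Per length, the order of the subunits was beta, alpha, gamma in both genotypes, at 53.5, 34.7 and 26.2 RPKM in miR-210Δ and 52.4, 35.2 and 19.7 RPKM in wDah.

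Lsp2, the most abundant of the larval serum protein genes, stood at 204, 238 and 222 CPM in miR-210Δ heads, against 223, 194 and 218 CPM in wDah heads. The ranges overlapped, and the log2 fold change was 0.066 (95% interval -0.077 to 0.21, adjusted p = 0.607, edgeR). Fbp1, the receptor gene, stood at 369.7, 433 and 376 CPM in miR-210Δ heads, against 356, 324 and 360.3 CPM in wDah heads. The groups did not overlap, though the lowest mutant library was close to the highest control. Its means were 393 ± 34.8 and 347 ± 19.5 CPM (SD, n = 3 each), and the log2 fold change of 0.18 (SE 0.063) missed the threshold (adjusted p = 0.106, edgeR). In 3 other fits Fbp1 was called, with an adjusted p of 0.0406 in DESeq2, 0.0287 with library totals and 0.0221 without wDah replicate 3.

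Ratios between genes of a family within a library do not depend on its scaling, and they were compared after the values of single genes had been seen. The ratio of Yp3 to Yp1, in RPKM, was 0.193, 0.178 and 0.185 in miR-210Δ heads, against 0.134, 0.115 and 0.148 in wDah heads. The ratio of Yp3 to Yp2 averaged 0.128 ± 0.0060 in miR-210Δ and 0.0884 ± 0.012 in wDah (SD, n = 3 each). In both ratios every mutant library was above every control. Yp2 over Yp1 was 1.43, 1.45 and 1.47 in miR-210Δ heads and 1.50, 1.52 and 1.48 in wDah heads, a small difference without overlap.

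The subunit genes of Lsp1 showed the same kind of shift. Lsp1gamma over Lsp1alpha was 0.734, 0.764 and 0.770 in miR-210Δ heads, against 0.534, 0.553 and 0.593 in wDah heads. Lsp1gamma over Lsp1beta was 0.494, 0.494 and 0.483 in miR-210Δ heads, against 0.388, 0.334 and 0.406 in wDah heads. The gamma gene thus held 22.9 ± 0.14% of the RPKM of the 3 subunit genes in miR-210Δ and 18.3 ± 1.10% in wDah (SD, n = 3 each). By contrast, Lsp1beta over Lsp1alpha averaged 1.54 ± 0.054 in miR-210Δ and 1.50 ± 0.14 in wDah, with overlapping ranges. Lsp2 over Lsp1gamma was 3.41 ± 0.041 in miR-210Δ and 4.34 ± 0.15 in wDah, without overlap. Of the 9 ratios compared, 6 had groups that did not overlap. Each of the 6 had p = 0.1 in a two-sided exact permutation test and 0.15 after adjustment over the 9. Apart from Yp2 over Yp1, each of the 6 holds Yp3 or Lsp1gamma, so they restate the calls of those genes and are not separate results. Ratios of other gene pairs were not counted. With 3 libraries against 3, no smaller p can be reached, so these ratios cannot pass a threshold of 0.05.

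**Figure D3:**
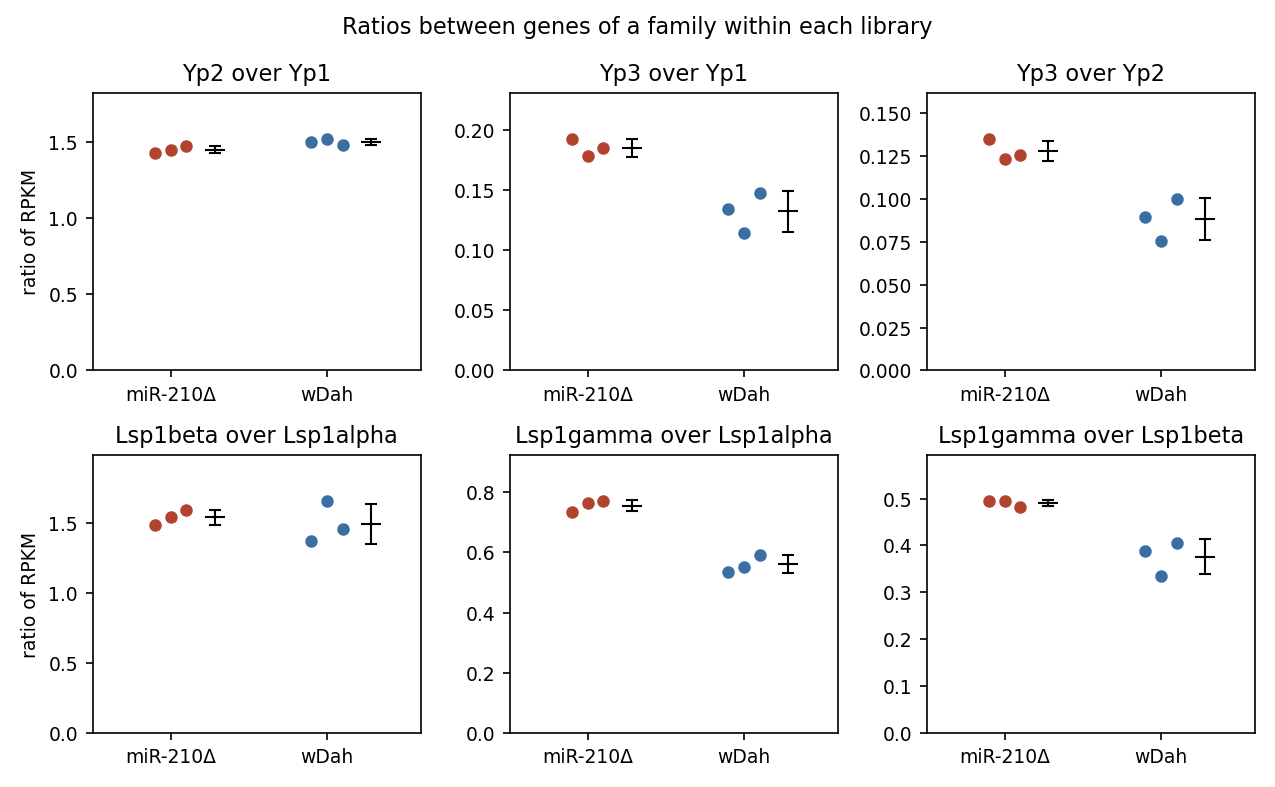
Ratios of RPKM between genes of a family within each head library, miR-210Δ and wDah (points), with the mean and SD (bar). The 4 ratios with Yp3 or Lsp1gamma on top are higher in all miR-210Δ libraries, Yp2 over Yp1 is slightly lower in them, and Lsp1beta over Lsp1alpha overlaps.

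The genes are related enough for reads to be shared in principle. Aligned coding bases were 69.4% identical between Yp1 and Yp2, 70.4% between Yp1 and Yp3 and 67.4% between Yp2 and Yp3. Lsp1alpha and Lsp1beta were the closest pair, at 84.3% with a longest identical run of 65 bp, whereas Lsp1gamma was 69.7% identical to Lsp1alpha and 72.9% to Lsp1beta, with runs of 27 and 33 bp. Lsp2 was 63.0% to 65.0% identical to the Lsp1 genes. The longest identical run in any pair was shorter than the read length given in the methods, and reads with several alignments had been removed.

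The genes were also compared by how they deviated from the mean of their genotype over the 6 libraries. The deviations of Yp1 and Yp2 correlated at r = 0.96, and those of Lsp1gamma and Lsp2 at 0.97. Lsp2 and Fbp1 reached 0.90, and Lsp1alpha and Lsp1gamma 0.89. Yp3 correlated at 0.53 with Yp1 and at 0.34 with Yp2. These values describe 6 libraries, whose genes share library and depth. Over 6576 genes with at least 10 CPM, those most like Yp2 across the 6 libraries were Prosbeta1, pira, tst, dco and yellow-h (r of 0.98 to 0.99 in log2 CPM), and those most like Lsp2 were pita, Coq9, Dredd, Hip1 and Ipo9 (0.96 to 0.99). For Yp3, a gene outside the naming rule and chosen after its values were seen, the most alike gene was CG3609 (r = 0.998). These r values are the highest of 6576 over only 6 libraries, and how high such maxima run by chance was not tested. They also hold the difference between genotypes.

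The genes near each of the 8 are given beside the 10.1% of all genes that were called. Within 50 kb of Yp3, 15 other genes were tested, of which 1, the phosphatidylinositol transfer protein gene rdgB, was lower in miR-210Δ (log2 fold change -0.29, adjusted p = 0.00718, edgeR). Around Lsp1gamma 3 genes were tested and 0 were called. Around Yp1 and Yp2, 1 of 9 neighbours was higher (CG32694), and around Lsp1beta 1 of 10 was lower, the rhodopsin chaperone gene ninaA. Of 5 neighbours of Lsp1alpha 1 was lower (hwt, log2 fold change -0.31, adjusted p = 0.00950), as was 1 of 14 of Lsp2 (yps, -0.32, adjusted p = 3.49e-04), and 0 of 6 were called around Fbp1.

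A further 8 markers of fat body and oenocytes, other than the genes described here, were measured. They summed to 2038, 2042 and 1972 CPM in miR-210Δ heads, against 1917, 1830.1 and 1835 CPM in wDah heads, without overlap, a ratio of means of 1.08, but their median log2 fold change was 0.036 and the sum moved with 2 genes. FASN1, which the study examined as a candidate target of miR-210, averaged 927 CPM in miR-210Δ and 812 CPM in wDah, and Lsd-1 averaged 203 CPM in miR-210Δ and 153 CPM in wDah. Of the 8 markers, 3 were called higher and 0 lower, beside 3.97% and 6.12% of all genes tested, and 4 had a positive value. Those called were Lsd-1 (log2 fold change 0.41, a perilipin gene), FASN1 (0.19, fatty acid synthase) and AkhR (0.33, the adipokinetic hormone receptor). Over all 10 fat body markers in the table, which include Lsp2 and Fbp1, 3 were called higher, 1 without miR-210Δ replicate 1 and 5 with library totals, and 0 were called lower, 1 with the replicate block and without wDah replicate 2 or 3. At an unadjusted p under 0.05, 5 were higher and 1 lower, and DESeq2 called 4 higher and 0 lower, limma-voom 3 and 0. Divided by the sum of the 8, Yp3 was 0.200 ± 0.0097 in miR-210Δ and 0.148 ± 0.019 in wDah (SD, n = 3 each), a ratio of means of 1.36. The same ratio of means was 1.23 for Lsp1gamma and 0.909 to 1.05 for the other 6 genes. Because the sum, which includes FASN1 and Lsd-1, was itself 1.08 times as high in miR-210Δ, each ratio is lower than the change in CPM. The part of the fat body content of the heads in the results was not tested.

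Markers of the ovary, of other larval tissues and of male tissues were low. Of 15 ovary markers, which include the chorion genes of follicle cells, 1 reached the filter and was not called, with a sum of 1.72 to 2.33 CPM in miR-210Δ and 1.30 to 1.77 CPM in wDah, and Cp15, Cp16, Cp36 and bam had 0 counts. Of 14 genes of larval glue and cuticle, 1 reached the filter and was not called, and Sgs5, Sgs8, Eig71Ea, Eig71Ec and Eig71Ed had 0 counts. Their sums were 12.5 to 15.3 CPM in miR-210Δ and 8.41 to 14.7 CPM in wDah, nearly all from the cuticle gene Lcp65Ac. Male dosage compensation RNA was close to 0 in both genotypes, with 41, 36 and 26 counts of roX1 in miR-210Δ heads, against 38, 35 and 34 in wDah heads, and with 0 counts of roX2 in all 6. Of the 7 genes of the dosage compensation list, 6 were tested. By edgeR 1 was called lower and 0 higher, beside 6.12% and 3.97% of all genes tested, and DESeq2 called 0 lower. The 13 testis and accessory gland markers summed to 4.60 to 7.01 CPM in miR-210Δ and 0.335 to 9.28 CPM in wDah, from different genes. The testis gene cannonball (can) had 117, 85 and 122 counts in miR-210Δ heads, against 1, 3 and 0 in wDah heads. It was the only 1 of the 13 to reach the filter and was called higher (log2 fold change 6.21, edgeR), beside 3.97% of all genes tested. With at least 10 counts required in each library, 0 of the 13 were called higher. The sperm genes Mst98Ca, dj, Mst87F and Mst98Cb had 73, 45, 32 and 19 counts in wDah replicate 3 and 0 to 9 in each other library, and bam, Acp26Aa and SP had 0 throughout. Of 11 blood cell markers tested, 3 were called lower and 1 higher, beside 6.12% and 3.97% of all genes tested. The summed level of all 12 counted was 3253 to 3363 CPM in miR-210Δ and 3489.7 to 3624 CPM in wDah. Those lower were Hml, vkg and Col4a1, the last also a product of fat body. The number lower was 1 without miR-210Δ replicate 1, and 0 were higher with DESeq2, with no count filter, with the replicate block, without any 1 of the miR-210Δ libraries and without wDah replicate 1. The single gene called higher was NimC1. Of 6 glial markers 1 was higher and 1 lower, and of 16 muscle markers 1 was higher. Of 6 neuronal markers 0 were called, with 1 lower at an unadjusted p under 0.05. The same shares of all genes called, 3.97% higher and 6.12% lower, stand beside these counts.

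Of the genes that control or receive yolk proteins, 14 of 15 were tested, with a median log2 fold change of -0.037. By edgeR, 0 were called higher and 2 lower, beside 3.97% and 6.12% of all genes tested. At an unadjusted p under 0.05, 1 was higher and 5 lower, and DESeq2 and limma-voom each called 0 higher. Kr-h1, the zinc finger gene that responds to juvenile hormone, stood at 54.6, 51.4 and 46.9 CPM in miR-210Δ heads, against 81.3, 73.4 and 75.5 CPM in wDah heads. The genotypes did not overlap (log2 fold change -0.59, adjusted p = 1.08e-04, edgeR). The sex determination gene fru was also lower (-0.25, adjusted p = 0.00181). The direct regulator doublesex (dsx) stood at 43.8, 42.0 and 44.6 CPM in miR-210Δ heads, against 46.3, 46.0 and 49.4 CPM in wDah heads, and was not called (-0.12, adjusted p = 0.189). Sxl, the master switch of female sex, was at 306 ± 12.6 CPM in miR-210Δ and 302 ± 14.4 CPM in wDah (SD, n = 3 each). The receptor gene of the oocyte, yolkless (yl), had 0, 1 and 4 counts in miR-210Δ heads, against 0, 2 and 3 in wDah heads.

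Of 25 ecdysone pathway genes, 20 were tested, with a median log2 fold change of -0.0054. By edgeR, 3 were called higher and 0 lower, beside 3.97% and 6.12% of all genes tested. At an unadjusted p under 0.05, 3 were higher and 3 lower, and DESeq2 and limma-voom each called 0 lower. The nuclear receptor gene Eip78C stood at 77.7, 72.9 and 68.3 CPM in miR-210Δ heads, against 53.1, 50.7 and 50.2 CPM in wDah heads (log2 fold change 0.51, adjusted p = 1.24e-04, edgeR). Hr38, another nuclear receptor gene, which is also induced by neuronal activity, stood at 51.0, 47.3 and 54.4 CPM in miR-210Δ heads, against 25.7, 28.4 and 34.8 CPM in wDah heads (0.78, adjusted p = 3.30e-04). The kinase gene Eip63E was higher by less (0.15, adjusted p = 0.0172). The receptor gene EcR, at 98.2 ± 0.46 CPM in miR-210Δ and 94.3 ± 3.98 CPM in wDah (SD, n = 3 each), was not called (adjusted p = 0.467). The hormone synthesis genes dib and spo had 0 counts in all libraries.

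Of 36 other genes for fat body secretion and fuel storage, 35 were tested, with a median log2 fold change of 0.043. Of these, 5 were called higher and 3 lower, beside 3.97% and 6.12% of all genes tested. Those higher were Lsd-1, FASN1, AkhR, the growth factor gene Idgf1 (log2 fold change 0.29) and the amylase gene Amy-d (0.73). Those lower were the amylase gene Amy-p (-2.70), the lipid phosphatase gene Lpin (-0.24) and Col4a1 (-0.18). The amylase genes are near-identical copies, so their split of reads is uncertain. The number higher was 3 without miR-210Δ replicate 1 and 10 with library totals, and the number lower was 5 without wDah replicate 3. The lipoprotein gene apolpp, a fat body product like the yolk proteins, stood at 298 ± 5.02 CPM in miR-210Δ and 275 ± 16.3 CPM in wDah (SD, n = 3 each) and was not called (adjusted p = 0.169). PPO1, a prophenoloxidase gene and thus a relative of the hexamerins, stood at 416, 478 and 458 CPM in miR-210Δ heads, against 471, 396 and 283 CPM in wDah heads, with overlap.

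Of 23 genes of autophagy, matrix proteolysis and cell death, processes by which larval fat body is remodelled, 22 were tested. Their median log2 fold change was -0.076. By edgeR, 0 were called higher and 5 lower, beside 3.97% and 6.12% of all genes tested. At an unadjusted p under 0.05, 1 was higher and 6 lower, and DESeq2 and limma-voom each called 0 higher. The initiator caspase gene Dronc stood at 448, 436 and 490.5 CPM in miR-210Δ heads, against 549.9, 613 and 554 CPM in wDah heads (log2 fold change -0.32, adjusted p = 0.00373, edgeR). Its partner Dark was lower in every mutant library (-0.29, adjusted p = 0.00233). The matrix metalloprotease gene Mmp1 (-0.32, adjusted p = 0.0109), the cell death activator gene hid (-0.89, adjusted p = 0.0138) and Atg9 (-0.16, adjusted p = 0.0254) were also lower. These genes act in many head tissues. The number lower was 3 without miR-210Δ replicate 1, 2 without miR-210Δ replicate 2 and 3 without miR-210Δ replicate 3.

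**Figure D4:**
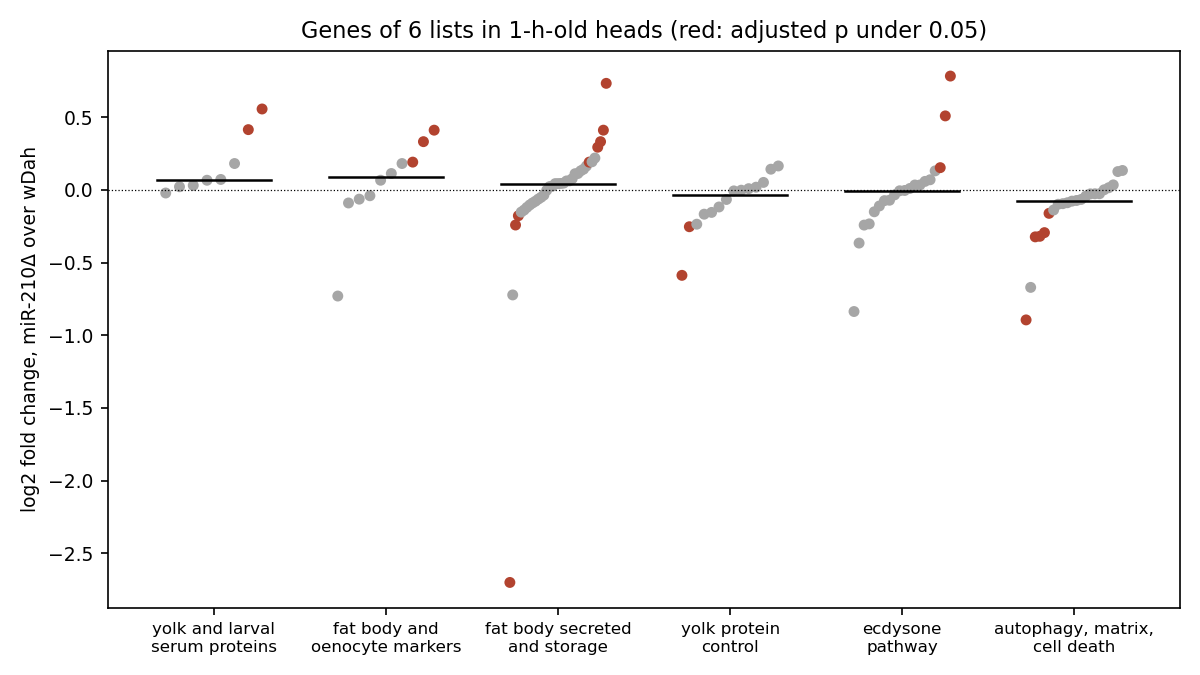
Log2 fold change, miR-210Δ over wDah heads, of each tested gene (points, red where the adjusted p is under 0.05) of the 8 storage protein genes and of 5 other lists, with the median of each list (line). The list medians lie between -0.076 for autophagy, matrix and cell death genes and 0.089 for the 10 fat body and oenocyte markers. Those 10 include Lsp2 and Fbp1, and the median of the other 8 is 0.036.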

How the data were processed

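Heads of miR-210Δ and wDah flies were represented by 3 poly(A) libraries each, grouped by their labels. The counts deposited by the authors are raw reads per gene, after trimming (Trim Galore 0.3.7), alignment to Dm6 (TopHat2) and removal of reads with several alignments (SAMtools). The sources used here name no counter, annotation or strand setting. Of the authors' deposited DESeq2 comparison, only identifiers and symbols were read, and its means, fold changes and p-values were not used.

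Counts were compared in R 4.3.3 with edgeR 4.0.16 (filterByExpr, TMM, quasi-likelihood test, Benjamini-Hochberg adjustment over all 9470 genes, threshold 0.05). Replicates varied by 5.54% (coefficient of variation, from a common dispersion of 0.00307). SE were derived as the absolute log2 fold change over the square root of the F statistic of edgeR's test, and 95% intervals used a t quantile. CPM use TMM-scaled library sizes, and RPKM divide by exon length. Alternatives were DESeq2 1.42.0, limma-voom (limma 3.58.1), other size factors and filters, a replicate block and each library left out in turn. Sequences came from the dm6 assembly of RefSeq, read with Biopython 1.88. Ratios within families were tested with SciPy 1.17.1.

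The genes described and all lists were chosen with earlier results of these data known. Named are all genes described here, up to 4 called genes of each list by adjusted p, the marker of highest mean CPM, and roX1, roX2, dsx and yl. Further names, including all called genes of short lists, neighbours, can, the sperm genes, Sxl, EcR, apolpp, PPO1 and genes at 0, were chosen after their values were seen.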

Additional observations from a re-analysis of the deposited data

How the results depend on the processing

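Yp3 and Lsp1gamma kept their calls and direction under all 14 alternatives. The log2 fold change of Yp3 was 0.45 to 0.62 with 1 library left out (adjusted p of 8.83e-06 to 0.0136) and 0.56 to 0.62 otherwise, and that of Lsp1gamma 0.33 to 0.47 (adjusted p of 3.36e-04 to 0.0411) and 0.41 to 0.47. Fbp1 passed the threshold with DESeq2 (log2 fold change 0.18) and with library totals (0.24), and ranged over 0.11 to 0.22 with 1 library left out, past the threshold without wDah replicate 3. The causes were not tested. The number of storage protein genes called higher was 2 or 3 and the number called lower 0 throughout. With library totals 793 genes were higher and 407 lower. With 1 library left out, 219 to 523 genes were higher and 375 to 755 lower, with both of the highest counts without wDah replicate 3, and the cause was not tested. Of 420 counts for gene lists, 35 moved, by over 1.5 times or to or from 0. Levels of the genes were recomputed with the length of the longest transcript and with library totals, and 32 of 32 stayed within the spread. For all genes but Yp2 the longest transcript has the same length as the merged exons, so the first of these could not move them. Replicates were not treated as paired in the main fit. Deviations of same-numbered libraries correlated at -0.080 to 0.10, which cannot exclude pairing with 3 libraries of each genotype. With the replicate block, 855 genes were called, 313 higher and 542 lower, Yp3 was at 0.56 (adjusted p = 2.78e-04) and Lsp1gamma at 0.42 (adjusted p = 0.00583), and no call of the 8 genes changed. Of the 3 miR-210Δ libraries, 2 correlated best with their own number.

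Depth was ample for all 8 genes, whose lowest count was 905, so the spread of 3 libraries limits the precision. At this spread the 95% intervals of the 5 genes whose intervals include 0 reach at most 0.21 in log2, and larger increases lie outside them. Heads combine tissues, and sex and dissection were not recorded in the labels.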
